A study of Mus musculus with 3 samples.

Results

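The cells described here are those of 2 clusters of brain immune cells that carry the deposited name activated microglia. A cluster was taken when, at resolution 0.4 of the authors' clustering, it held at least 1 cell with that name, and every cell of such a cluster was then counted, in all 3 libraries and whatever its own name. This gave 1001 of 12668 cells, of which 936 lie in the larger cluster (number 2) and 65 in the smaller one (number 13). The larger cluster had 183 cells in the no-tumor library, 424 in the LGG library and 329 in the HGG library. The smaller cluster had 17 no-tumor cells, 29 LGG cells and 19 HGG cells.

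Microglia are the resident macrophages of the brain. They sense tissue damage and infection, take up debris, and in steady state carry Cx3cr1, the receptor for the chemokine fractalkine. When activated, microglia can release Ccl3 and Ccl4, chemokines that attract monocytes and lymphocytes. In gliomas, microglia and macrophages that come from blood monocytes are both present, and their profiles are hard to tell apart.

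Mouse immune cells were profiled with droplet-based single-cell RNA sequencing on the 10x Genomics platform, after papain digestion of right-hemisphere tissue and magnetic enrichment for CD45, the surface protein shared by leukocytes. Each group was 1 library of the same organism and tissue: no tumor, from similar-sized normal tissue at a labelled age of 0 to 2 weeks (3544 cells), LGG, or low grade glioma, at 3 to 4 weeks (5024 cells), and HGG at 6 to 8 weeks (4100 cells). The protocol mentions injected cells, but strain, genotype, tumor cells and the number of animals per library are not stated, nor whether age was counted from birth or from that injection. The HGG library is titled as no tumor, while its library name and description say HGG, so it is the library labelled HGG wherever a direction is drawn from it below. Effects of age, of the library itself and of the tumor cannot be told apart, no difference between libraries has a replicate check, and no p-value is given. Intervals are at the 95% level and hold counting error alone. A share was called higher or lower when the ratio between libraries was 1.5 or more, or the inverse of that or less, without overlap of the exact intervals.

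The files used hold no value per gene, so Ccl3, Ccl4 and Cx3cr1 could not be looked up in any cell, and the name activated microglia could not be checked against them. What could be checked is which names other deposited annotations gave to the same cells. For the larger cluster these names were mostly microglia, except in some sets derived from marker lists. For the smaller cluster they were mixed, with microglia named by some sets and other cell types by others, and the clusters are therefore called the larger and the smaller cluster. Microglia outside both clusters, 6732 cells by the authors' class (2691 with no tumor, 2062 LGG and 1979 HGG), serve as the comparison and are called the other microglia.

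The activated name was given by library as well as by cluster. All 801 members of the LGG and HGG libraries carried it and none of the 200 no-tumor members did. The class of the no-tumor members was microglia for 179 cells of the larger cluster and 7 of the smaller, glioma associated macrophages for 4 cells of the larger cluster, and monocyte for 10 cells of the smaller. A count by name would thus put the no-tumor library at 0 where the count by cluster gives 200 cells.

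Counted by cluster, the larger cluster took a larger share of the LGG library than of the no-tumor library. It made up 5.16% of no-tumor cells (4.46 to 5.94%), 8.44% of LGG cells (7.69 to 9.24%) and 8.02% of cells in the HGG library (7.21 to 8.90%). The ratio was 1.63 for LGG over no tumor (1.38 to 1.93) and 1.55 for HGG over no tumor (1.304 to 1.85), and both met the call. For LGG over no tumor 58.8% of the 17 clusters were called higher, and for HGG over no tumor 47.1% were, so that being called higher does not set the larger cluster apart from the rest of the cells. Between the tumor libraries the ratio was 0.951 for HGG over LGG (0.828 to 1.09), which was not called, where 17.6% of clusters were called higher and 35.3% lower.

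The shares of the smaller cluster overlapped within counting error in the 3 libraries. It held 0.480% of no-tumor cells (0.280 to 0.767%), 0.577% of LGG cells (0.387 to 0.828%) and 0.463% of HGG cells (0.279 to 0.723%). The ratios were 1.203 for LGG over no tumor (0.662 to 2.19), 0.966 for HGG over no tumor (0.503 to 1.86) and 0.803 for HGG over LGG (0.451 to 1.43), none of them called. Without cells called doublets they were 1.05 for LGG over no tumor, 0.511 for HGG over no tumor (0.234 to 1.11) and 0.486 for HGG over LGG (0.234 to 1.01), again not called. Both tumor ratios over no tumor have intervals wide enough to hold a change of 1.5-fold up or down, so these 65 cells cannot show a difference of that size. Together the clusters held 5.64% of no-tumor cells, 9.02% of LGG cells and 8.49% of HGG cells, with ratios of 1.60 for LGG over no tumor and 1.504 for HGG over no tumor. The smaller cluster was 8.50% of the no-tumor members, 6.40% of the LGG members and 5.46% of the HGG members, with overlapping intervals.

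These directions depend on what the cells are counted against. Among members and other microglia, the larger cluster was 6.33% without tumor (5.47 to 7.28%), 16.9% in LGG (15.4 to 18.4%) and 14.1% in HGG (12.7 to 15.6%). Within microglia so defined its share was 2.66 times as high in LGG as without tumor and 2.23 times as high in HGG. With the other microglia left out of the denominator, the order turned round. The larger cluster was then 21.5% of no-tumor cells (18.7 to 24.4%), 14.3% of LGG cells (13.1 to 15.6%) and 15.5% of HGG cells (13.996 to 17.1%), with ratios of 0.667 for LGG and 0.723 for HGG over no tumor. The intervals lay apart, but neither ratio reached the call. For both clusters together, LGG over no tumor was then 0.652 (0.563 to 0.756), which was called lower. The other microglia were 2691 of 3544 no-tumor cells, 2062 of 5024 LGG cells and 1979 of 4100 HGG cells.

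**Figure D1:**
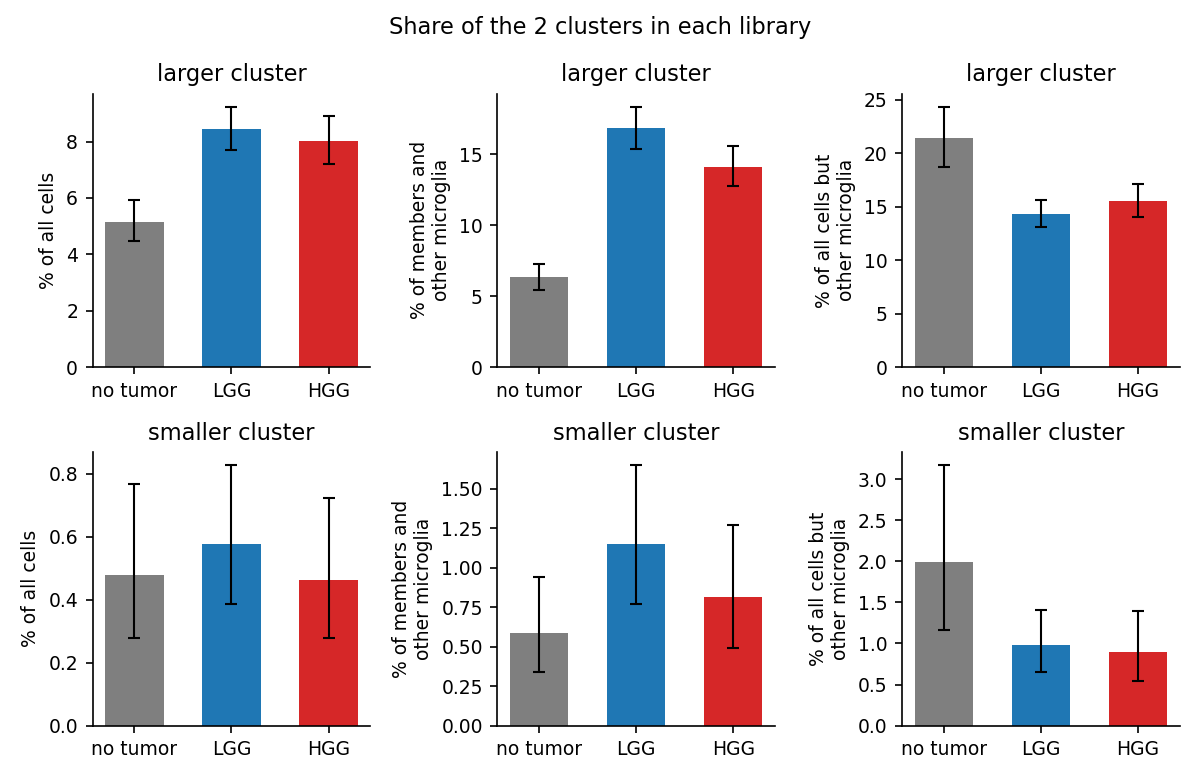
Share of the larger cluster (upper row) and the smaller cluster (lower row) in the no-tumor, LGG and HGG libraries, as a percent of all cells (left), of members and other microglia (middle) and of all cells but the other microglia (right), where bars are shares and error bars exact 95% intervals. The larger cluster stands at 5.16%, 8.44% and 8.02% of all cells, and on the right the order turns to 21.5%, 14.3% and 15.5%.

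Depth moved with the larger cluster in the HGG library. Its median cell had 8801 UMIs (quartiles 6513.5 to 10710) without tumor, 9491 (6836.25 to 12951) in LGG and 16431 (9917 to 21918) in HGG. The other microglia of the same libraries had 8992, 8646.5 and 9072 UMIs, so the larger cluster was deeper by a factor of 1.098 in LGG and 1.81 in HGG and was at 0.979 of the other microglia without tumor. In HGG, the other microglia were also spread widely, with quartiles of 5143.5 and 17570.5 UMIs. All cells outside both clusters had medians of 8833.5 UMIs without tumor, 9910 in LGG and 12330.5 in HGG. Against these, the larger cluster was shallower without tumor and in LGG, and deeper in HGG. The larger cluster had 2745 genes per cell without tumor, 2621 in LGG and 3371 in HGG, against 2893, 2525 and 2798 in the other microglia of these libraries.

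The place of the larger cluster along the range of depth differed between libraries too. Cells were sorted by UMIs into 4 bins of equal size, with boundaries of 6186.75, 9793 and 15420.2 UMIs set over all 12668 cells. Without tumor the cluster took 4.26% of the library's cells in the shallowest bin, 6.73% and 4.57% in the middle ones and 3.89% in the deepest. In LGG these shares were 7.46%, 10.5%, 9.27% and 6.12%, each above the no-tumor value of that bin, with intervals that lay apart in all but the deepest one. In HGG they were 3.13%, 7%, 11.8% and 9.96%, and only in the third and the deepest bin did the intervals lie apart from those without tumor, both higher. Within the range of UMIs common to the libraries, 2985.2 to 14346.3, the ratio was 1.74 for LGG over no tumor (1.44 to 2.09) and still called, and 1.34 for HGG over no tumor (1.06 to 1.69) and no longer called. With strata of 10 depth classes in place of the range, it was 1.75 for LGG and 1.53 for HGG over no tumor.

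Genes detected per 100 UMIs were fewer in the larger cluster of HGG than elsewhere. The median was 32.3 without tumor, 27.8 in LGG and 20.7 in HGG, against 31.6, 29.2 and 28.6 in the other microglia. In all cells outside both clusters it was 31.4 without tumor, 26.8 in LGG and 23.6 in HGG. This quotient drops as depth grows, and the part of depth in it was not tested.

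The mitochondrial percent of UMIs, often read as a sign of RNA quality or cell stress, was higher in the tumor libraries. In the larger cluster its median was 2.38% without tumor, 3.99% in LGG and 4.64% in HGG. In the other microglia it was 2.25%, 3.03% and 3.82%, so that the larger cluster lay above them by 0.136, 0.963 and 0.828 percentage points. Among cells with at most 5% mitochondrial UMIs, the ratio of the larger cluster's share was 1.39 for LGG over no tumor and 1.38 for HGG over no tumor, and neither was called. The percent labelled ribosomal had medians of 0.335%, 0.312% and 0.308% in the larger cluster and 0.383%, 0.351% and 0.341% in the other microglia. The highest value in any cell was 1.85%, and the genes it sums are not stated.

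In the smaller cluster the spread of depth between cells was wide. Its UMIs had a median of 7208 without tumor with quartiles of 1688 and 8851, a median of 10034 in LGG with quartiles of 1840 and 20240, and a median of 10811 in HGG with quartiles of 2850.5 and 13731.5. In HGG the distance between the quartiles was no wider than in the larger cluster. Mitochondrial UMIs were at 3.93% without tumor, 4.88% in LGG and 5.204% in HGG, above the other microglia in each library. The ribosomal percent stood at 0.323%, 0.395% and 0.605%, and in HGG the lower quartile (0.4998%) was above the median of the other microglia (0.341%).

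**Figure D2:**
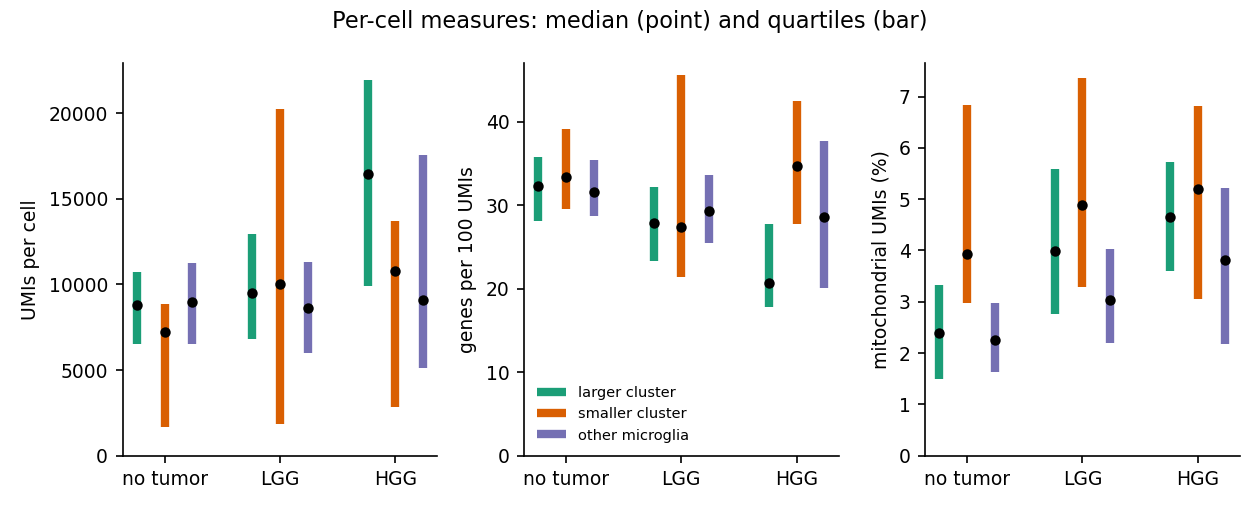
Median (point) and quartiles (bar) of UMIs per cell, genes per 100 UMIs and the mitochondrial percent of UMIs, for the larger cluster, the smaller cluster and the other microglia in the no-tumor, LGG and HGG libraries. In HGG the larger cluster has a median of 16431 UMIs and 20.7 genes per 100 UMIs, against 9072 UMIs and 28.6 genes per 100 UMIs in the other microglia.

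Cell-cycle phase was deposited as a call per cell, made from scores for S and G2M genes. In the larger cluster, S calls took 22.4% of no-tumor cells (16.6 to 29.1%), 31.4% of LGG cells (27.0 to 36.0%) and 19.5% of HGG cells (15.3 to 24.2%). The other microglia had 24.5% without tumor, 29.3% in LGG and 26.6% in HGG, and only in HGG did the intervals of cluster and other microglia lie apart (15.3 to 24.2% against 24.7 to 28.6%). G2M calls in the larger cluster were 4.37% (1.91 to 8.43%), 10.8% (8.05 to 14.2%) and 6.38% (3.99 to 9.59%) in these libraries, against 4.09%, 7.27% and 6.87% in the other microglia. Median scores were below 0 for both gene sets in every library and in both populations. In the common range of UMIs the S calls of the larger cluster were 20.9%, 29.7% and 22.7%, and the HGG value then overlapped that of the other microglia, 26.2%. Phase calls depend on depth and are not read here as cycling.

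The smaller cluster held many cells called doublets in the tumor libraries, that is, droplets with a mixture of cells by the deposited call. The calls were 0 of 17 without tumor, which allows a share of up to 17.6%, 4 of 29 in LGG (13.8%, 3.89 to 31.7%) and 9 of 19 in HGG (47.4%, 24.4 to 71.1%). In the larger cluster they were 5 of 183 without tumor (2.73%), 1 of 424 in LGG (0.236%) and 3 of 329 in HGG (0.912%). Among all cells outside both clusters the shares were 2.87%, 4.33% and 3.28%. Of the 19 HGG cells in the smaller cluster, 7 were also called G2M (36.8%, 16.3 to 61.6%), against 1 of 17 without tumor and 3 of 29 in LGG. Without doublet calls, the smaller cluster was 2.98% of the HGG members.

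Other deposited names separate the clusters clearly. For each cell, 5 sets of names were compared, 2 from SingleR (a tool that matches each cell to reference profiles), 2 headed VHove and 1 from scANVI (a neural network that carries names over from a reference). The name TAM 2, not spelled out in the table, was counted with microglia, since 99.7% of the 10122 cells that scANVI calls TAM 2 are microglia in the first SingleR names, as are 96.5% of the 10049 cells that the first VHove names call TAM 2. These names are broad, since scANVI gives TAM 2 to 10122 of all 12668 cells, while the members number 1001 and the other microglia 6732. Cells of other classes thus carry them too, and the share of all cells with such names in all 5 sets was not computed. In the larger cluster, 860 of 936 cells (91.9%) were microglia or TAM 2 in all 5 sets. By library these were 183 of 183 without tumor, 358 of 424 in LGG (84.4%, 80.6 to 87.8%) and 319 of 329 in HGG (97.0%, 94.5 to 98.5%). In the other microglia the shares were 98.5%, 91.0% and 83.5%, so that LGG was lowest in the larger cluster and HGG in the other microglia.

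Of the 66 LGG cells left out of this count, 58 were called BAM, the usual short form of border-associated macrophages, by the second VHove names. Border-associated macrophages line the meninges, the choroid plexus and the vessels of the brain. The name was given to 0 of 183 no-tumor cells of the larger cluster, which allows a share of up to 1.64%, to 58 of 424 LGG cells and to 8 of 329 HGG cells. The first SingleR names call 64 of these 66 cells microglia. The share of all cells called BAM was not computed, so it cannot be said whether these counts are particular to the larger cluster. The 58 LGG cells had a median of 15891.5 UMIs and 5.74% mitochondrial UMIs, against 9111 UMIs and 3.78% in the 363 LGG cells of the cluster that the same names call microglia. The 8 HGG cells did not share this, with 14546.5 UMIs and 3.24% against 16493 UMIs and 4.65%.

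A second layer of names in the table calls 854 cells of the larger cluster microglia, 80 macrophages and 2 T cells. At resolution 1.5 of the authors' clustering, all 37 members in cluster 4 and all 42 in cluster 6 have the macrophage name. The layer appears to follow that clustering, so these names are not a separate check. The macrophage name went to 4 of 183 no-tumor cells (2.19%, 0.599 to 5.50%), 52 of 424 LGG cells (12.3%, 9.30 to 15.8%) and 24 of 329 HGG cells (7.29%, 4.73 to 10.7%). These cells were deep, with a median of 16931 UMIs over the libraries against 9981 for the microglia-named cells. Counting only the microglia-named cells, the ratio was 1.46 for LGG over no tumor and 1.47 for HGG over no tumor, and neither reached the call.

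In the smaller cluster, 26 of 65 cells (40.0%) were microglia or TAM 2 in all 5 sets and 15 in none. Taken singly, the first SingleR names called 43 of the 65 cells microglia (66.2%, 53.4 to 77.4%) and scANVI called 42 TAM 2 (64.6%). The second SingleR names called 28 microglia, the first VHove names 29 TAM 2 and the second VHove names 27 microglia, which is under 50% in each. By library, the cells that were microglia or TAM 2 in all 5 sets were 9 of 17 without tumor (52.9%), 14 of 29 in LGG (48.3%) and 3 of 19 in HGG (15.8%). The second layer of names splits this cluster into 35 cells called monocyte, 25 called microglia and 5 called macrophages. The monocyte-named cells were 10 of 17 without tumor, 13 of 29 in LGG and 12 of 19 in HGG. This layer calls 63 cells of the series monocyte, and 28 of them lie outside the smaller cluster.

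The monocyte name of these 35 cells was not shared by the other sets. The second SingleR names called 15 of them oligodendrocytes, 7 neurons, 5 astrocytes, 5 epithelial cells and 3 microglia. The first SingleR names called 14 microglia, 8 fibroblasts, 7 endothelial cells, 3 stromal cells and 3 macrophages. The second VHove names called 18 of them B cells, 9 cDC (conventional dendritic cells) and 1 a monocyte. Of the 35, 12 were called doublets, all of them in the tumor libraries, with 4 in LGG and 8 in HGG. The 10 no-tumor cells among them were shallow, with a median of 2217 UMIs and 6.74% mitochondrial UMIs, whereas the 13 LGG cells had 14232 UMIs and the 12 HGG cells 11431.5 UMIs. The 25 microglia-named cells were all microglia in the first SingleR names, 23 of them TAM 2 in the first VHove names, and 1 was called a doublet. The part of doublets and of shallow cells in these names was not tested.

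**Figure D3:**
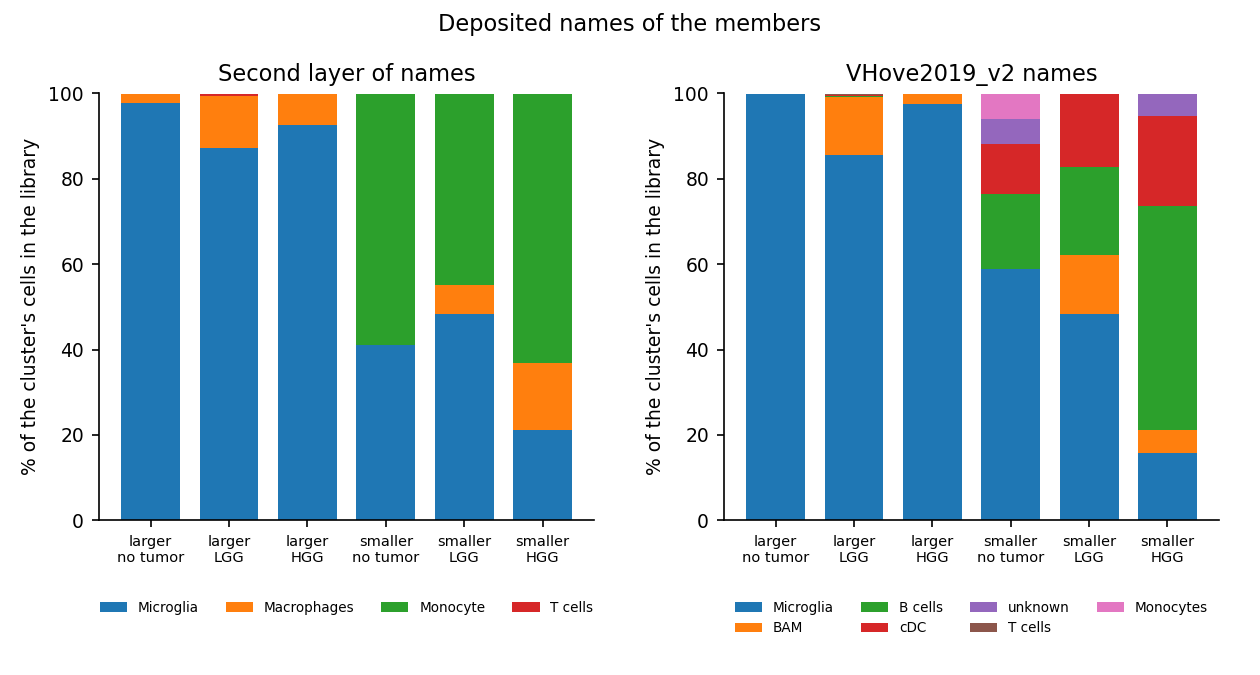
Share of each cluster's cells per library by the second layer of names (left) and by the second VHove names (right), in percent of the cluster's cells in that library. The larger cluster is microglia in 183 of 183 no-tumor cells on the right and loses 58 of 424 LGG cells to BAM, while the smaller cluster is mostly monocyte or microglia on the left and mixed on the right.

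Names derived from marker lists with the tool SCSA differed between versions. The files hold 3 versions that call all 1001 members granulocytic MDSC, a term for suppressive neutrophil-like myeloid cells. The share of all cells given this name was not computed, so it cannot be said whether it is particular to the members. A further version calls the 801 tumor members Ccl3 expressing myeloid, and among the no-tumor members it calls 198 microglia and 2 B cells. Ccl3 appears here only in a name, with no value behind it in the files used.

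The clusters sat apart in the authors' UMAP, a plane on which cells with similar profiles lie near each other. The median position was 2.99 and 3.42 for the larger cluster, 3.51 and -1.00 for the other microglia, and -1.63 and -4.55 for the smaller cluster. The 25 microglia-named cells of the smaller cluster lay at 3.73 and -1.96, near the other microglia, and the 35 monocyte-named cells at -1.75 and -4.83. In the larger cluster, 9 cells lay far to the left (1 no-tumor, 7 LGG, 1 HGG), 3 of which both the first SingleR names and scANVI call mast cells.

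**Figure D4:**
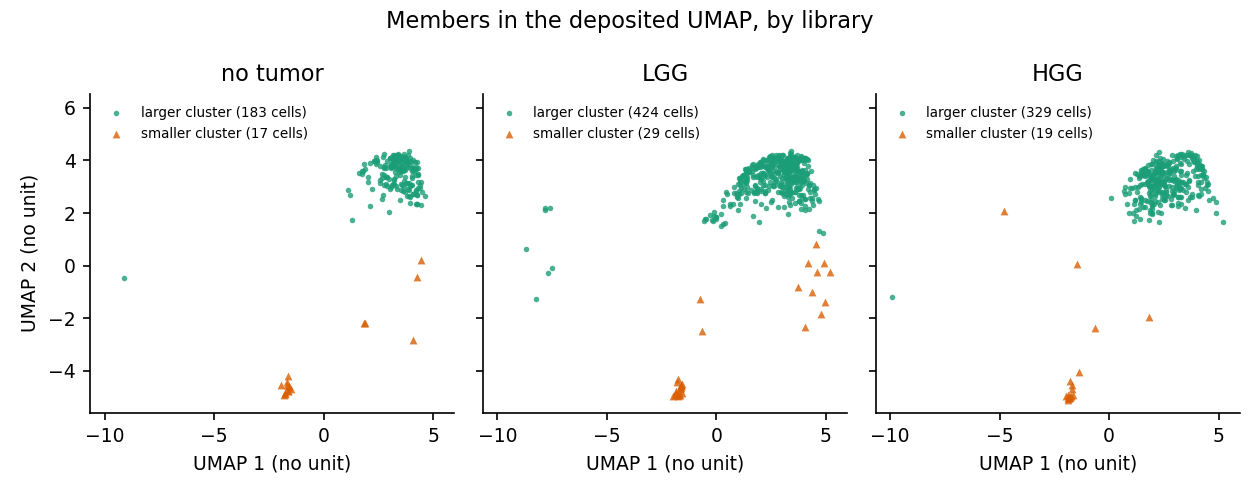
Position of the members in the deposited UMAP (no unit) in the no-tumor, LGG and HGG libraries, circles for the larger cluster and triangles for the smaller one. Apart from 9 cells on the far left, the larger cluster forms 1 patch in each library around 2.99 and 3.42, and the smaller cluster splits into a tight group near -1.75 and -4.83 and scattered cells near 3.73 and -1.96.

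The table holds 22 clusterings of the same cells, which show how firmly the members belong together. At resolution 0.1 all 936 cells of the larger cluster merged into a cluster of 8537 cells, of which they were 11.0%. At resolution 0.2, 660 of the 936 formed a cluster of their own with no other cell. At resolution 1.5, 590 of them filled 98.3% of cluster 7, and 253 lay in cluster 3, where members were 20.6% of 1227 cells and the rest are named microglia. Over the 20 clusterings from resolution 0.2 upward without 0.4, 521 of 936 cells (55.7%) always lay in a cluster made mostly of members. These were 111 of 183 without tumor (60.7%, 53.2 to 67.8%), 251 of 424 in LGG (59.2%, 54.4 to 63.9%) and 159 of 329 in HGG (48.3%, 42.8 to 53.9%). The HGG cells that always stayed together had a median of 14409 UMIs and the other HGG cells 18449.5.

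The smaller cluster kept together at resolutions up to 0.7, where 64 or 65 of its 65 cells shared a cluster. At resolution 0.1 they were 66.7% of a cluster of 96 cells, and at 0.3 they were 67.0% of 97 cells. From resolution 0.8 upward, 35 to 37 of the 65 cells joined 28 cells named monocyte, and the rest scattered over clusters with under 20 members. At resolution 1.5, these were the same 35 cells that the second layer of names calls monocyte. All 28 other cells of that cluster have this name too. The layer appears to follow this clustering, so the match is not a separate check. Outside both clusters, 37 cells (16 no-tumor, 15 LGG, 6 HGG) joined the members in at least 50% of the 20 clusterings.

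At resolution 5, the finest, the larger cluster split into 6 sub-clusters with at least 20 members, and their make-up differed between libraries. Sub-cluster 6 was almost pure, with 435 members among its 441 cells, and held 59.6% of the larger cluster without tumor (52.1 to 66.7%), 48.3% in LGG (43.5 to 53.2%) and 36.8% in HGG (31.6 to 42.2%). Sub-cluster 7 held 28.4%, 18.4% and 17.3% in these libraries. Within the larger cluster the ratio for HGG over no tumor was 0.617 for sub-cluster 6 (0.513 to 0.743) and 0.610 for sub-cluster 7 (0.438 to 0.848). For LGG over no tumor these ratios were 0.812 (0.695 to 0.948) and 0.647 (0.477 to 0.878), neither of which met the call. The share of all clusters called was not computed at resolution 5, so it cannot be said whether a call there is particular to these sub-clusters. Against all cells the order was not the same. The whole of sub-cluster 6, non-members included, was 3.13% of the no-tumor library, 4.12% of LGG and 3% of HGG, and the whole of sub-cluster 7 was 3.64% of no-tumor cells, 3.54% of LGG cells and 3.098% of HGG cells.

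Sub-clusters 24 and 41 took larger shares of the larger cluster in HGG than without tumor. Sub-cluster 24 held 4.37% of the larger cluster without tumor, 7.31% in LGG and 22.5% in HGG (18.1 to 27.4%), with ratios of 5.15 for HGG over no tumor (2.54 to 10.4), 3.08 for HGG over LGG (2.08 to 4.56) and 1.67 for LGG over no tumor (0.784 to 3.57), the last not called. Sub-cluster 41, with 103 members among 104 cells, held 4.37%, 12.03% and 13.4%, with ratios of 2.75 for LGG over no tumor (1.33 to 5.68) and 3.06 for HGG over no tumor (1.47 to 6.36), so that the lower bounds of both lie above 1. The whole of sub-cluster 24 was 0.959% of no-tumor cells, 1.17% of LGG cells and 3.56% of HGG cells, and that of sub-cluster 41 was 0.254%, 1.02% and 1.07%. Sub-cluster 11 held 2.19%, 3.77% and 6.38% of the larger cluster in these libraries, a difference not called in any comparison, and most of its cells outside the clusters are glioma associated macrophages. Sub-cluster 32 held 0 of 183 no-tumor cells, which allows up to 1.64%, 24 of 424 LGG cells (5.66%) and 4 of 329 HGG cells (1.22%), and 23 of its 28 members carry the name BAM. In this sub-cluster 131 cells lie outside the clusters, and 129 of them are named macrophages. The whole of sub-cluster 32, non-members included, was 0.0847% of no-tumor cells, 2.49% of LGG cells and 0.756% of HGG cells. That of sub-cluster 11 was 0.593%, 1.09% and 7.24%. In both, the libraries stood in the same order as among the members.

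Depth differed between the sub-clusters too. The members of sub-clusters 24, 41, 11 and 32 had medians of 18363, 17432, 18879 and 16328 UMIs over the libraries, against 9175 in sub-cluster 6 and 8895 in sub-cluster 7. These medians pool libraries of unequal depth, and 74 of the 113 members of sub-cluster 24 are HGG cells. Without tumor the gap was small, with medians of 9464.5 UMIs in sub-cluster 24 and 10478.5 in sub-cluster 41, against 8844 in sub-cluster 6. In LGG the medians were 12778 and 15395 UMIs in sub-clusters 24 and 41, against 8808 in sub-cluster 6. Within HGG, sub-cluster 6 had a median of 11956 UMIs and sub-cluster 24 one of 21771.5. The part of depth in the different make-up was not tested, since the files hold no values per gene from which cells could be thinned to 1 depth.

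**Figure D5:**
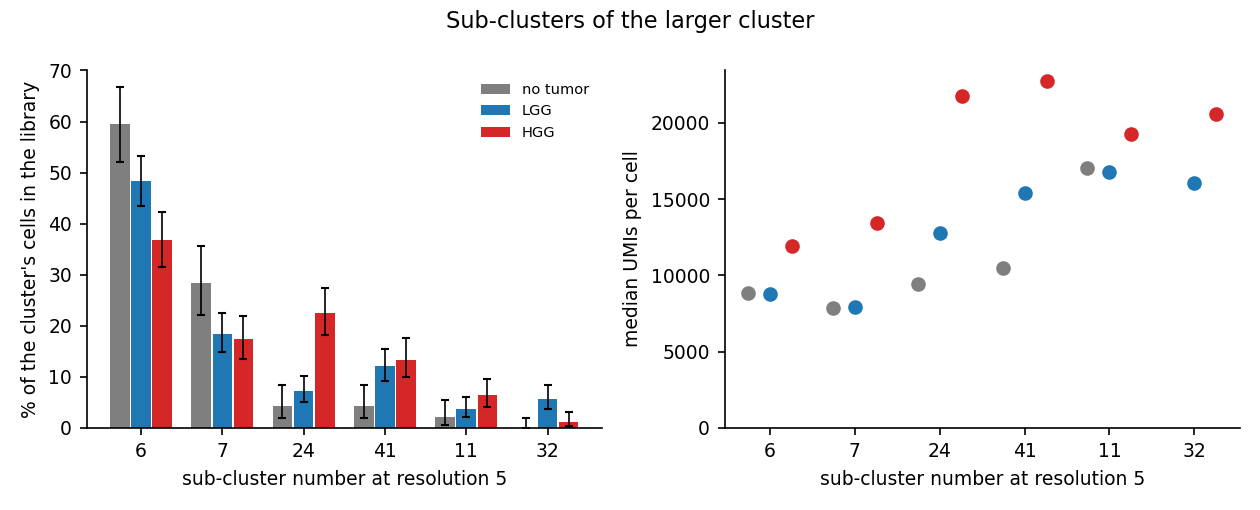
Left, share of the larger cluster's cells in each library that lie in the 6 sub-clusters of resolution 5 with at least 20 members, with exact 95% intervals; right, median UMIs per cell of those members where a library has 4 or more of them. As a share of the larger cluster, not of the library, sub-cluster 6 stands at 36.8% in HGG against 59.6% without tumor, and sub-cluster 24 at 22.5% in HGG against 4.37% without tumor, with medians of 11956 and 21771.5 UMIs in HGG.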

How the data were processed

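Brain immune cells enriched for CD45 were profiled in 3 libraries, 1 per group. The labels' protocols name Cell Ranger 3.0.2 for mapping (mm10) and counting, and the submitters' processing notes list Seurat 4. For filters on cells, no limit is given in the sources used here. Of the table's 64 columns for 12668 cells, 54 were used and 10 were not. The authors deposited, per the file headers, each cell's count of UMIs and of genes (not normalized), its percent of mitochondrial and of ribosomal UMIs, and a score for S and for G2M genes. The genes behind these percents and scores are not stated. Names, clusters, phases, doublet calls and UMAP positions are the authors' too, and doublets were kept unless stated. No values per gene were analysed here, so marker genes were not looked up and cells were not thinned to 1 depth.

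Cells were assigned to groups through their library name. Intervals at 95% are exact (Clopper-Pearson) for shares and Katz log intervals for ratios, computed with Python 3.11.15, pandas 2.3.3 and scipy 1.17.1. Where a share is 0, its limit is that of 3 counts. The background of the calls on shares of all cells is the 17 clusters of resolution 0.4 that hold 20 or more cells in some library. No background was computed for the sub-clusters, for the other denominators or for the alternatives in processing. The ratio, its interval and the call were tried on simulated counts for LGG over no tumor, for each cluster apart. The simulation held counting error alone, so it cannot show how the calls fare under variation between libraries. In the columns of names that the text describes, each name carried by at least 20 members of a cluster was described. Smaller ones were named where the text speaks of them. Some columns of names were not described. The members, lists and call rule were chosen with earlier results of these data known. The stratified ratio, the count of microglia-named members alone and the removal of shared barcodes were added after the data were seen. Of 15 barcodes found in more than 1 library, 2 cells are members.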

Additional observations from a re-analysis of the deposited data

Results flagged for a closer look

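Some medians of the clusters lay below those of the other microglia without tumor and above them in both tumor libraries. With 1 library per group, none of these differences between libraries was tested. In the larger cluster the UMIs per cell differed from the other microglia by -191 without tumor, 844.5 in LGG and 7359 in HGG. Its genes per cell differed by -148 without tumor, 96 in LGG and 573 in HGG. Its G2M score differed by -0.00135 without tumor, 0.00931 in LGG and 0.00637 in HGG, all small beside the quartiles of the score, -0.0779 and -0.0332 in the no-tumor cells of the cluster.

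In the smaller cluster the UMIs per cell differed from the other microglia by -1784 without tumor, 1387.5 in LGG and 1739 in HGG. Its genes per cell differed by -352 without tumor, 317 in LGG and 514 in HGG. Its ribosomal percent differed by -0.0599 percentage points without tumor, 0.0438 in LGG and 0.264 in HGG. These medians rest on 17 no-tumor cells, 29 LGG cells and 19 HGG cells, 4 of the LGG cells and 9 of the HGG cells being called doublets.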

How the results depend on the processing

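The larger cluster's LGG over no tumor ratio (1.63) met the call under 12 of 15 alternatives and the HGG over no tumor ratio (1.55) under 9. For both clusters together these numbers were 11 and 6. The ratio over strata of UMIs, counted among the 15, has no exact intervals of shares. It was called when it was 1.5 or more with a lower bound above 1. With the other microglia out of the denominator the ratios turned, for LGG over no tumor to 0.652 for both clusters and 0.667 for the larger, for HGG over no tumor to 0.6998 and 0.723, and in the smaller cluster to 0.491 and 0.449. Of these, only the 0.652 for both clusters was called, and as lower, where the reported ratio was called higher. At most 5% mitochondrial UMIs gave 1.38 (both) and 1.39 (larger) for LGG and 1.36 and 1.38 for HGG over no tumor. Only microglia-named members gave 1.46 and 1.46 for LGG and 1.44 and 1.47 for HGG, and in the smaller cluster 0.494 for HGG over no tumor and 0.350 for HGG over LGG. The common range of UMIs gave 1.37 and 1.34 for HGG over no tumor, 0.808 and 0.773 for HGG over LGG, and in the smaller cluster 1.92 and 1.75. These ratios of the smaller cluster were not called, with intervals of 0.780 to 4.71 and 0.744 to 4.11. They rest on 10 HGG cells, 7 of them called doublets, against 9 no-tumor and 11 LGG cells. Clusters of resolution 0.3 gave 1.32 and 1.43 for HGG over no tumor and 0.772 and 0.781 for HGG over LGG. Clusters of resolution 5 gave 1.43 (both) for LGG over no tumor, 1.12 and 1.203 for HGG over no tumor and 0.784 and 0.793 for HGG over LGG. For both clusters, HGG over no tumor was 1.45 at resolution 0.5, 1.496 without doublet calls and 1.49 over strata of UMIs. Without doublet calls the smaller cluster gave 0.511 for HGG over no tumor and 0.486 for HGG over LGG. The smaller cluster was 3.58% of LGG members in the common range and 2.98% of HGG members without doublet calls. The cause of these changes was not tested.

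No paired analysis was possible because each group is 1 library. Leaving out a replicate was likewise not possible. Of the medians, phase shares and name counts, 117 values stayed within the interval of the reported one and 15 moved. For a median this was its interval over the cells, which is wide where cells are few. Leaving out doublet calls removed 0 of the 17 no-tumor cells of the smaller cluster. The counts of 117 and 15 are therefore no measure of stability. The 65 cells of the smaller cluster limit every statement on it.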
